A study of Mus musculus and Rattus norvegicus with 32 samples.

Results

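Immediate early genes are switched on within minutes of a stimulus, from transcription factors already present in the cell and without new protein synthesis. The 10 examined here were Fos, Fosb, Jun, Junb, Egr1, Egr2, Atf3, Ier2, Ier3 and Myc, chosen by name and found in all 4 count tables of the study, among 55487 genes in each mouse table and 32883 in the rat table. All 10 passed the filter on low counts in each table. The tables held 32 libraries, 4 in each of 8 groups. The first compared hearts of 1-month-old C57BL/6 mice labelled METTL5-KO with controls. The paper treats this knockout apart from the cardiomyocyte-specific one that follows. The second compared 3-month-old METTL5-cKO hearts with controls, where Myh6-Cre removed floxed exons 2, 3 and 4 of METTL5 in cardiomyocytes, so that other cells of the heart kept the gene. The third compared the same genotypes, labelled 3 months old, after transverse aortic constriction (TAC), an operation that loads the left ventricle with pressure. These hearts were collected 4 weeks after surgery. The fourth compared neonatal rat ventricular cardiomyocytes (NRVM) of Sprague Dawley rats at postnatal day 2, transduced with an adenovirus carrying the human METTL5 coding sequence (AdMETTL5) or GFP (AdGFP). Both NRVM groups received phenylephrine (PE), an alpha-adrenergic agonist that makes cardiomyocytes grow, at 20 μM for 24 h. The study used littermates as controls in the mouse experiments. Their exact genotype, such as whether they carried Cre, is not given in the sources used here. METTL5 is the methyltransferase that places N6-methyladenosine on 18S rRNA.

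Serum, growth factors, stretch and adrenergic agonists reach these genes mainly through the MAP kinases ERK, JNK and p38, which act on SRF with its partners at the CArG box, and on CREB at the cAMP response element. The Fos and Jun proteins pair into AP-1. Egr1 and Egr2 are zinc finger transcription factors, Atf3 is a stress-induced member of the ATF/CREB family, and Myc drives growth and ribosome production. Ier2 is a nuclear regulator of transcription, and Ier3 feeds back on ERK and NF-kB signaling. In the heart, pressure overload and PE induce them early, and handling of the tissue at collection can do so too.

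The RefSeq promoter table (GRCm38.p6) held windows of 250 bases before to 50 after the start for 7 of the 10 genes, which gave 11 windows in all (Ier2, Myc and Egr1 were the others). On both strands 4 patterns were searched in the 250 bases before the start, so sites farther away were not seen. A CArG box was found in 1.47% of all 32851 windows, and among the 7 genes in those of Egr2 alone. The core of the cAMP response element, TGACG, was found in 17.8% of all windows and in those of 5 of the 7 genes (Atf3, Fosb, Junb, Egr2 and Fos). The AP-1 site TGANTCA was in 6.75% of all windows and in none of the 7 genes. TATAAA was in 12.4% of all windows and in that of Fos. These are mouse sequences, and no rat promoter was read. A match is a description of letters and does not show that a factor binds there. A gene without a match may hold the site farther from the start. The shares count windows, whereas a gene was counted when any of its windows matched, and Egr2 had several. The 150 bases before the start are printed for Egr2 and Junb, which were higher in METTL5-cKO hearts after TAC, for Jun, which was lower with AdMETTL5, and for Fos, against which the other genes are compared. Capitals mark the matches.
Egr2, chr10:67537719-67537868, plus strand: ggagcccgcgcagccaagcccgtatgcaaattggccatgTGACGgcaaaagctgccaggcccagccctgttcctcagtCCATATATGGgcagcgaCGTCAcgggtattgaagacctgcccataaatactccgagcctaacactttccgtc
Junb, chr8:84978749-84978898, minus strand: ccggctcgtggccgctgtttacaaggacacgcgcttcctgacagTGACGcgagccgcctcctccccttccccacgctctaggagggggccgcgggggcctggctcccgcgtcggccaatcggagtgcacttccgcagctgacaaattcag
Jun, chr4:95052223-95052372, minus strand: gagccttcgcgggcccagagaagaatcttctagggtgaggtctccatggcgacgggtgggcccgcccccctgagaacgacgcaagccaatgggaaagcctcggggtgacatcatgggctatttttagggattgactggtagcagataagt
Fos, chr12:85473740-85473889, plus strand: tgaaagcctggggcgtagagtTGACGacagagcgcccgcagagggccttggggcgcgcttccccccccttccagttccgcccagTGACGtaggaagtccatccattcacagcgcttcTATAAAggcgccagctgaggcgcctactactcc
In Egr2 the CArG box began 72 bases before this start, with TGACG at 111 and its reverse complement CGTCA at 55 bases. Fos had TGACG at 129 and 66 bases and TATAAA at 33, and the window of Jun held none of the 4 patterns.

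Total counts ranged from 19899033 to 21804907 in the mouse libraries and from 14324700 to 18085339 in the NRVM libraries. In NRVM every AdGFP library (17344430 to 18085339) was deeper than every AdMETTL5 library (14324700 to 14642431). Depth thus went with the group there, and its part in the NRVM results was not tested. Levels are given as CPM, the counts divided by the TMM-scaled library size and set to the usual common total. Libraries are numbered 1 to 4 within each group. Mettl5 counts over the whole gene did not separate the genotypes (log2 fold change 0.22 with a standard error of 0.147 at 1 month, -0.18 and 0.116 at 3 months, -0.04 and 0.12 in the TAC hearts), so they gave no check of the mouse genotypes. In METTL5-cKO hearts such counts include cells that keep the gene, and also exons outside the floxed 2, 3 and 4. Mettl5 also overlaps Ssb on the other strand and Gm13625 on the same strand. The part of each in these counts was not tested. For the METTL5-KO hearts at 1 month no reason was examined. The floxed exons alone were not analysed here. Rat Mettl5 was higher with AdMETTL5 (0.32, 0.0723), and reads of the human sequence were not told apart from it. The 6 cardiomyocyte markers summed to between 15959 and 31217 CPM in the mouse libraries. In the NRVM libraries they summed to between 6772 and 16254 CPM, beside 7549 to 9906 CPM for the 6 fibroblast markers, although the cells had been pre-plated to remove fibroblasts. In such bulk RNA, fewer cells of a type and less RNA per cell cannot be told apart.

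Levels of the genes relative to each other were read per kilobase of exon in the 3-month-old control hearts. Ier3 led with 19.6 ± 3.7 CPM per kilobase, followed by Jun with 11.5 ± 2.67 (SD, n = 4). Ier2 at 6.29 ± 1.05 and Junb at 5.63 ± 0.986 did not differ beyond their spread. The same held for Atf3 at 2.38 ± 1.26, Egr1 at 2.32 ± 0.7 and Fos at 1.35 ± 0.53. Myc at 0.855 ± 0.126 and Fosb at 0.713 ± 0.394 overlapped with each other and with Fos. Egr2 was lowest at 0.153 ± 0.0892 (all CPM per kilobase of exon), and its highest library just reached the lowest of Fosb. Egr2 therefore rested on few reads in the mouse hearts, with 5 to 20 counts in the 3-month-old control libraries.

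**Figure D1:**
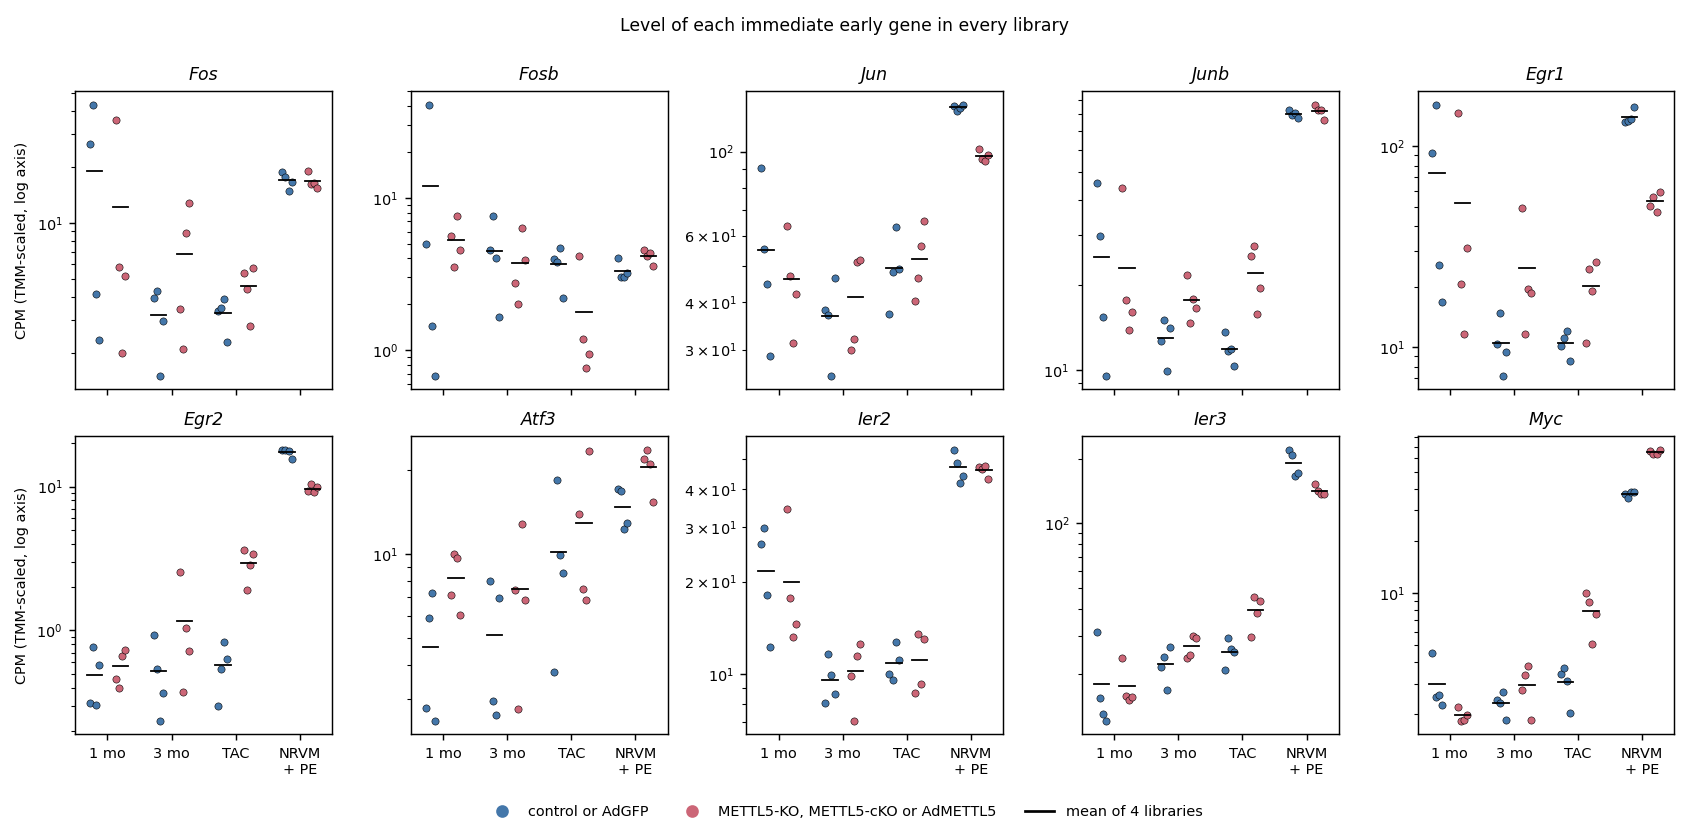
Level of each gene in every library, in TMM-scaled CPM on a log axis, for the hearts at 1 month (1 mo), 3 months (3 mo) and after TAC and for PE-treated NRVM. Points are libraries and bars the mean of 4. Fos reached from 2.36 to 43.2 CPM within the 1-month-old controls, whereas its 8 NRVM libraries lay between 14.9 and 19 CPM.

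The widest differences lay between libraries of the same group at 1 month. Fos had 26.4, 43.2, 4.17 and 2.36 CPM in control libraries 1 to 4 and 35.6, 5.77, 1.99 and 5.2 CPM in METTL5-KO libraries 1 to 4. Control libraries 1 and 2 and METTL5-KO library 1 were high, and the other 5 were low. The highest was 18.3 times the lowest within the controls and 17.9 times within the METTL5-KO group. Egr1 followed the same 3 libraries, with 92.3, 161, 25.7 and 16.9 CPM in the controls and 146, 20.5, 11.6 and 31.1 CPM in the METTL5-KO hearts. Junb had 45.7, 29.7, 15.4 and 9.58 CPM against 44, 17.8, 13.9 and 16.1 CPM, again with the same 3 libraries on top. Ier2 was also highest in these 3, with 26.4, 29.9 and 34.3 CPM in them and 12.3 to 18.1 CPM in the other 5. Jun was highest in control library 1 (90.6 CPM), METTL5-KO library 1 (63.5 CPM) and control library 2 (55.2 CPM), and lay between 28.8 and 46.9 CPM elsewhere. Ier3 was high in control library 1 (31.2 CPM) and METTL5-KO library 1 (23.5 CPM) and lay between 12.1 and 15.8 CPM elsewhere, control library 2 included.

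Fosb did not follow this order. It had 40.8 CPM in control library 2, 4.94, 1.45 and 0.681 CPM in the other controls and 3.53 to 7.59 CPM in the METTL5-KO libraries. Atf3, Egr2 and Myc did not separate the 3 libraries either. Atf3 was highest in METTL5-KO libraries 2 and 3, at 10 and 9.67 CPM. The summed level of 50 other immediate early genes was 1904, 1658 and 1631 CPM in the 3 libraries and 1144 to 1281 CPM in the other 5. Other gene lists also differed between the libraries, and of those given here only the red blood cell markers separated the 3 from the others. The red blood cell markers summed to 461, 1276 and 828 CPM in the 3 libraries and to between 1352 and 4569 CPM in the others. The neutrophil markers summed to 50.8 CPM in control library 1, which also stood farthest from the other controls (chi-square of 83.5 to 151 for each degree of freedom), and to between 1.83 and 11.3 CPM in the other 7. Among these, control library 2 had 1.85 CPM and METTL5-KO library 1 had 11.3 CPM. Circadian output genes summed to 431, 303 and 631 CPM in the 3 libraries and to between 220 and 365 CPM in the others, and heat shock genes to 408, 492 and 344 CPM against 413 to 747 CPM, with overlap in both. Their part in the levels of the immediate early genes was not tested.

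**Figure D2:**
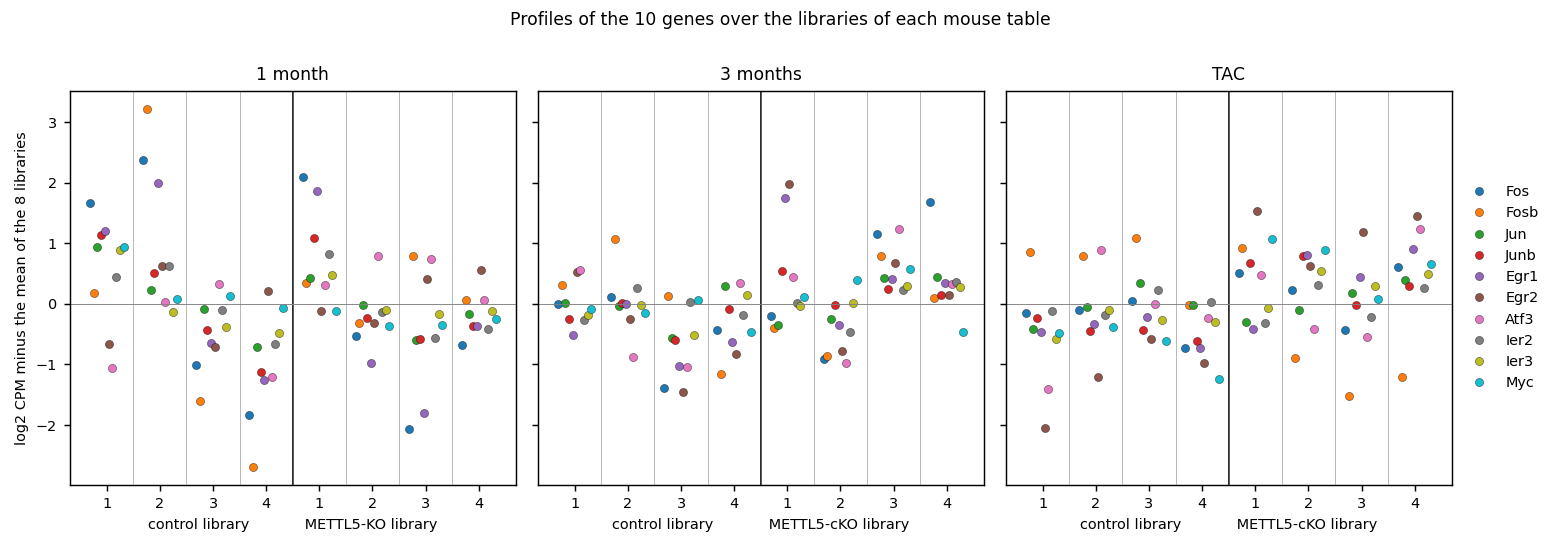
Level of each gene in every mouse library as log2 CPM minus its mean over the 8 libraries of its table. Points are genes, columns are libraries (controls left of the black line), and at 1 month Fos, Egr1 and Junb are highest in control libraries 1 and 2 and METTL5-KO library 1.

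The spread was summarized as the pooled within-group SD of log2 CPM and its percentile among all genes tested in that table. At 1 month the median percentile of the 10 genes was 90.7, with Fos at 99.5 (SD 1.87), Fosb at 99.4 (1.80), Egr1 at 98.9 (1.54) and Junb at 96 (0.88). By this measure Myc was the steadiest of them, at the 68.1st percentile with an SD of 0.32. At 3 months the median percentile was 89.4, where Fos (97.6), Egr2 (97.3) and Atf3 (97.1) ranked highest and Ier3 (54.5) lowest. After TAC it was 86.8, led by Atf3 (97.4) and Fosb (97). In NRVM it was 55.6, and Jun (1.96), Myc (5.68) and Junb (12.1) ranked among the steadier genes. The SD of Fos was 0.95 at 3 months, 0.4 after TAC and 0.13 in NRVM. By definition 10% of all genes lie above the 90th percentile, and 6 of the 10 genes did so in 1-month-old hearts, 5 in 3-month-old hearts, 3 in the TAC hearts and 0 in NRVM. The gene-wise coefficient of variation of Fos estimated by edgeR was 5.09 times that of genes of its level at 1 month and 0.979 times in NRVM. With the wider spread, the standard error of the log2 fold change of Fos was 1 at 1 month and 0.0882 in NRVM. The percentile of the SD is not adjusted for level, whereas the ratio of coefficients of variation is. At 1 month that ratio was lowest for Egr2 (0.833) and Myc (0.853), and after TAC it was 1.09 for Egr2. In NRVM Atf3 (1.74) and Ier3 (1.43) lay above the 90th percentile of that ratio, and the others below it.

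**Figure D3:**
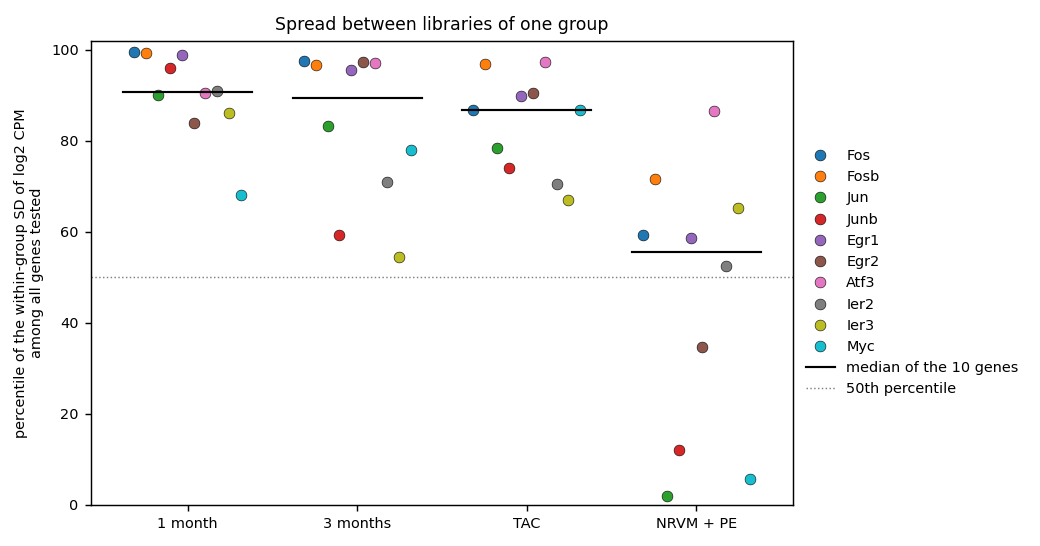
Percentile of the within-group SD of log2 CPM of each gene among all genes tested in the same table. Points are genes and bars the median of the 10, which falls from 90.7 at 1 month to 55.6 in NRVM.

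At 1 month none of the 10 genes was called different between METTL5-KO and control hearts. edgeR called 0 of them at an adjusted p under 0.05, as it called 0.00612% of the 16329 genes tested, and DESeq2 called 0 as well. At an unadjusted p under 0.05 it was 2 of the 10, Atf3 and Myc, beside 4.57% of all genes. Myc had 4.55, 2.52, 2.6 and 2.25 CPM in the controls and 2.2, 1.84, 1.85 and 1.99 CPM in the METTL5-KO hearts. Its groups stood apart, as for 3.01% of all genes, and for 1.49% with the lower level in METTL5-KO hearts (log2 fold change -0.60, standard error 0.24, adjusted p = 0.973, exact two-sided permutation p = 0.0286, the smallest that 4 against 4 libraries allow). Control library 1 stood above the other controls, and the highest METTL5-KO library lay just below the lowest control. Atf3 had 2.78, 5.89, 7.25 and 2.51 CPM in the controls and 7.14, 10, 9.67 and 6.03 CPM in the METTL5-KO hearts, with overlapping groups (0.84, standard error 0.341, adjusted p = 0.973). The other 8 genes had log2 fold changes between -1.17 (Fosb, standard error 1) and 0.20 (Egr2, standard error 0.364). The sign of Fos, Fosb, Jun, Junb, Egr1, Ier2 and Ier3 turned when 1 library was left out. For Fosb the log2 fold change became 1.14 without control library 2. Of 46 further immediate early genes tested, edgeR and DESeq2 called 0, and 2 passed an unadjusted p under 0.05. Of 23 upstream regulators (MAP kinases, SRF and CREB and their partners) both called 0, and 1 passed unadjusted.

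At 3 months none of the 10 genes was called either, by edgeR or by DESeq2, beside 0.0732% of the 16391 genes tested. At an unadjusted p under 0.05 it was 2 of the 10, Egr1 and Junb, beside 7.05% of all genes. None of the 10 had groups without overlap, beside 4.23% of all genes. In 9 of the 10 the log2 fold change was above 0, and its median over the 10 was 0.40, beside 0.00071 over all genes. Egr1, which is induced by many growth signals, had 10.3, 14.7, 7.22 and 9.47 CPM in the controls and 49.2, 11.6, 19.4 and 18.7 CPM in the METTL5-cKO hearts. METTL5-cKO library 1 was far above the others, and library 2 fell among the controls (log2 fold change 1.25, standard error 0.41, adjusted p = 0.521, exact permutation p = 0.0571). Junb had 12.6, 15.1, 9.91 and 14.2 CPM against 21.7, 14.7, 17.8 and 16.5 CPM, where METTL5-cKO library 2 again lay within the controls (0.45, standard error 0.159, adjusted p = 0.567, exact permutation p = 0.0571). Egr2 was at 5 to 20 counts in the controls and 8 to 56 in the METTL5-cKO hearts, with library 1 highest (1.16, standard error 0.593). Fos was highest in METTL5-cKO libraries 3 and 4, with 8.81 and 12.7 CPM, and lay between 1.51 and 4.28 CPM in the other 6 libraries of the table (1.09, standard error 0.528). METTL5-cKO library 1, the highest in Egr1 and Egr2, had 3.44 CPM of Fos, whereas libraries 3 and 4, the highest in Fos, were also above all controls in Egr1. Fosb (-0.24), Jun (0.16), Ier2 (0.10), Ier3 (0.27), Myc (0.35) and Atf3 (0.54) did not pass an unadjusted p under 0.05. Of 47 further immediate early genes both tools called 0, with 2 at an unadjusted p under 0.05. The fibroblast markers summed to 313 to 419 CPM in the controls and 412 to 524 CPM in the METTL5-cKO hearts, where edgeR called 0 of 6, DESeq2 2 higher, and 5 passed unadjusted. The endothelial markers summed to 483 to 736 and 383 to 575 CPM (edgeR 0 of 5, DESeq2 1 lower, 3 unadjusted). The circadian output genes were lowest in METTL5-cKO libraries 3 and 4, the highest in Fos, at 289 and 266 CPM beside 387 to 614 CPM in the other 6. Their part in the levels of the 10 genes was not tested.

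After TAC, 5 of the 10 genes were higher in METTL5-cKO than in control hearts and none was lower. The 5 were Egr2, Egr1, Myc, Junb and Ier3, in edgeR as in DESeq2, beside 12.7% of the 16340 genes tested (6.57% higher and 6.1% lower). All 4 METTL5-cKO libraries lay above all controls for 4 of the 10 genes, beside 9.41% of all genes, and 18.6% of all genes had groups apart in either direction. The median log2 fold change of the 10 was 0.56, against -0.0035 over all genes.

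Egr2 (chromosome 10 of GRCm38, 67535475 to 67542188, plus strand) showed the largest fold change of the 10. It had 6, 11, 16 and 13 counts in control TAC libraries 1 to 4 (0.298, 0.535, 0.832 and 0.631 CPM) and 82, 42, 70 and 68 counts in the METTL5-cKO TAC libraries (3.6, 1.91, 2.83 and 3.39 CPM). The lowest METTL5-cKO library lay above the highest control. The means were 0.574 ± 0.222 and 2.93 ± 0.753 CPM (SD, n = 4). On the log2 scale Egr2 rose by 2.35, with a standard error of 0.295 (adjusted p = 0.00549 in edgeR), and the call held with each library left out in turn (2.14 to 2.58). It was not tested where 10 counts were required in every library. Egr1, the related factor on chromosome 18 (34859823 to 34864984, plus strand), had 10.2, 11.1, 12.1 and 8.49 CPM in the controls and 10.5, 24.6, 19.1 and 26.4 CPM in the METTL5-cKO hearts. METTL5-cKO library 1 lay among the controls and the other 3 above them (0.95, standard error 0.254, adjusted p = 0.0405 in edgeR, exact permutation p = 0.0857). The call of Egr1 was lost when any 1 library other than METTL5-cKO library 1 was left out, with adjusted p-values between 0.0526 and 0.114.

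Myc (chromosome 15, 61985391 to 61990374, plus strand) rose from 3.07 ± 0.727 to 7.9 ± 2.12 CPM (SD, n = 4). It had 3.42, 3.7, 3.12 and 2.04 CPM in the control TAC libraries and 10, 8.89, 5.09 and 7.59 CPM in the METTL5-cKO TAC libraries, without overlap. On the log2 scale this was 1.36 (standard error 0.237, adjusted p = 0.0125 in edgeR) and stayed called with each library left out (1.21 to 1.53). Myc and Egr2 were the pair that also passed a log2 fold change over 1 and a joint fit over the 24 mouse libraries.

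Among the AP-1 genes of the 10 only Junb (chromosome 8, 84974484 to 84978718, minus strand) was called. Fosl2, an AP-1 gene outside the 10, was called higher among the further immediate early genes. That call of Fosl2 did not hold in 1 fit over the 24 mouse libraries or in every fit that left out 1 library. Junb had 13.6, 11.7, 11.9 and 10.4 CPM in the controls and 25.3, 27.5, 15.8 and 19.6 CPM in the METTL5-cKO hearts, and each of the latter was above each control. Junb rose by 0.89 on the log2 scale (standard error 0.171, adjusted p = 0.0154 in edgeR), with an adjusted p of 0.0541 without control TAC library 4. The gene overlaps Prdx2 on the other strand, and whether the counting used strand is not stated in the sources used here. Jun (chromosome 4, 95049034 to 95052222, minus strand) had 37.2, 47.9, 63.2 and 49 CPM in the controls and 40.3, 46.4, 56.3 and 65.6 CPM in the METTL5-cKO hearts. The groups of Jun overlapped throughout (0.08, standard error 0.182). Fos (chromosome 12, 85473890 to 85477273, plus strand) had 3.37, 3.5, 3.9 and 2.28 CPM against 5.35, 4.42, 2.79 and 5.74 CPM. In METTL5-cKO hearts 3 libraries were above all controls and 1 was not (0.48, standard error 0.239, adjusted p = 0.203). Fosb (chromosome 7, 19302696 to 19310051, minus strand) was the gene with a log2 fold change below 0. It had 3.97, 3.79, 4.68 and 2.18 CPM in the controls and 4.17, 1.18, 0.768 and 0.949 CPM in the METTL5-cKO hearts, where library 1 stood at the control level and the other 3 below it. Fosb did not pass the test (-1.04, standard error 0.494, adjusted p = 0.185 in edgeR), but without METTL5-cKO TAC library 1 its log2 fold change was -1.92 with an adjusted p of 0.0141.

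Ier3 (chromosome 17, 35821684 to 35822923, plus strand) had 20.8, 29.2, 26.1 and 25.3 CPM in the control TAC libraries and 29.6, 45.6, 38.3 and 43.7 CPM in the METTL5-cKO TAC libraries. The lowest METTL5-cKO library was just above the highest control, and Ier3 rose by 0.63 on the log2 scale (standard error 0.147, adjusted p = 0.0264 in edgeR). The call of Ier3 was lost without control TAC library 1, 3 or 4 or METTL5-cKO TAC library 2 or 3, where adjusted p-values lay between 0.0517 and 0.0817. Ier2 (chromosome 8, 84661331 to 84662852, minus strand) stayed between 8.73 and 13.5 CPM in all 8 libraries (0.03, standard error 0.161). Atf3 (chromosome 1, 191170296 to 191218039, minus strand) had 3.77, 18.5, 9.94 and 8.54 CPM in the controls and 13.9, 7.47, 6.83 and 23.4 CPM in the METTL5-cKO hearts. Its groups overlapped (0.34, standard error 0.491).

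**Figure D4:**
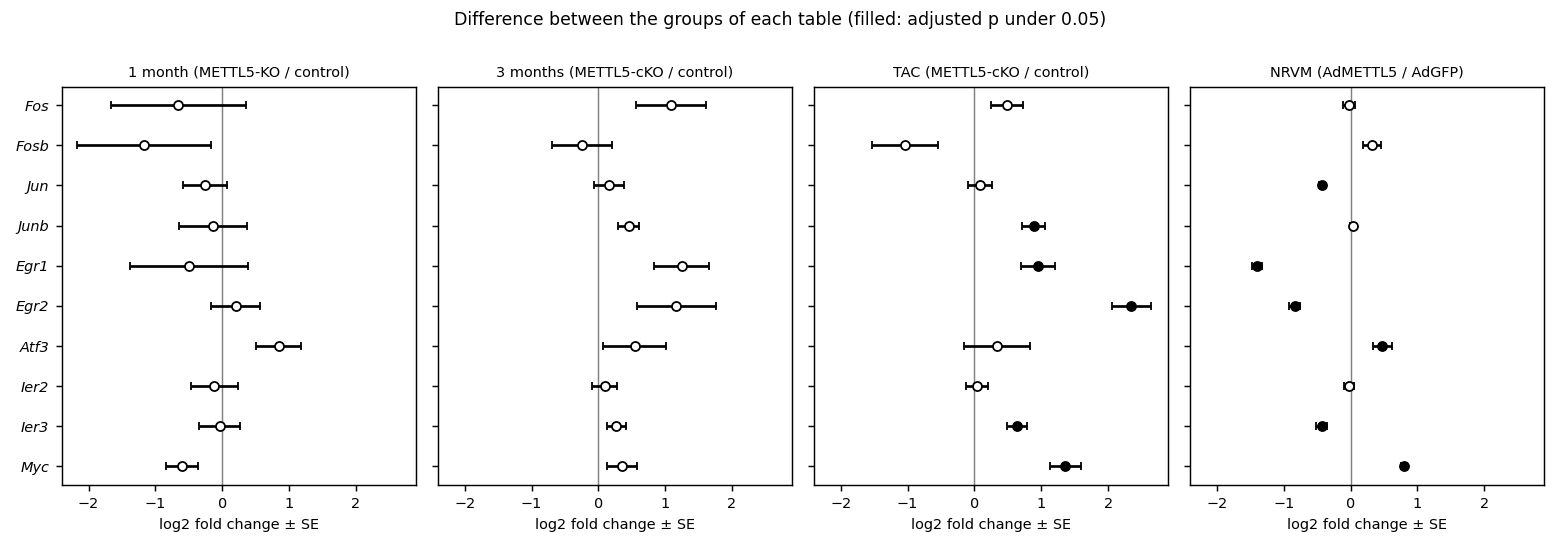
Log2 fold change of each gene between the 2 groups of each table, with a standard error derived from the edgeR test. Filled points have an adjusted p under 0.05: Junb, Egr1, Egr2, Ier3 and Myc after TAC, and Jun, Egr1, Egr2, Atf3, Ier3 and Myc in NRVM.

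The genotype difference after TAC was set against that at 3 months by an interaction term over the 16 libraries. edgeR called 0 of the 10 genes, beside 0.00586% of the 17070 genes tested, DESeq2 called 0, and 1 of the 10, Myc, passed an unadjusted p under 0.05, beside 11.8% of all genes. The difference of log2 fold changes was 1.03 for Myc (standard error 0.347, adjusted p = 0.252), 1.2 for Egr2 (standard error 0.722), 0.45 for Junb (standard error 0.247), 0.38 for Ier3 (standard error 0.219) and -0.29 for Egr1 (standard error 0.527). The genotype effect on these genes was thus not shown to differ between operated and unoperated hearts. At 3 months METTL5-cKO library 1 was high in Egr1 and Egr2, and without it the interaction of Egr1 was 0.29.

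Further immediate early genes also rose after TAC. Of 47 tested, 14 were higher and 0 lower (29.8%), with a median log2 fold change of 0.32, and DESeq2 called 17 higher and 0 lower. The count moved between 3 (without control TAC library 4) and 17 when 1 library was left out. Hbegf, a ligand of the EGF receptor, had 18.1, 15.2, 12.3 and 10.5 CPM in the controls and 44.8, 58.1, 31.6 and 30.4 CPM in the METTL5-cKO hearts (1.55, standard error 0.236, adjusted p = 0.00857 in edgeR). Ptgs2, the inducible cyclooxygenase, rose by 1.28 (standard error 0.217) and the matricellular gene Ccn1 by 1.04 (standard error 0.182) on the log2 scale. Nr4a1, an orphan nuclear receptor, rose by 1.32 (standard error 0.264) and lost its call without control TAC library 4, with an adjusted p of 0.0608. In 1 fit over the 24 mouse libraries Ptgs2 (adjusted p = 0.0535), Ccn1 (0.0949) and Nr4a1 (0.157) lost their calls, and Hbegf did not. Of the 23 upstream regulators, 1 was higher and 3 were lower, a share of 17.4% that lay near the 12.7% of all genes. DESeq2 called 2 higher and 5 lower. The MAP kinase kinase Map2k1 was higher by 0.38, and the kinase Rps6ka5 and the factor Creb1 were among the lower (-0.60 and -0.33). Of the 8 fits that each left out 1 library, the call was lost in 6 for Map2k1 and Creb1 and in 2 for Rps6ka5 (without control TAC library 4 or METTL5-cKO TAC library 2). Of 14 partners of AP-1 and MYC tested, 1 was called, Atf4, higher by 0.30 (standard error 0.0749), a call lost in 5 of those 8 fits.

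Markers of other cells moved with the genotype after TAC. Of the 6 fibroblast markers 5 were higher, and their sum was 431 to 529 CPM in the control TAC libraries and 2034, 1393, 1371 and 651 CPM in METTL5-cKO TAC libraries 1 to 4. Of the 5 endothelial markers 4 were lower, with sums of 599 to 704 and 397 to 538 CPM. Of the 6 cardiomyocyte markers 1 was lower (sums of 24262 to 28385 and 18000 to 23477 CPM), and 1 of 5 macrophage markers was higher (121 to 169 and 159 to 220 CPM). No fibroblast, endothelial, cardiomyocyte or macrophage marker was at 0 in all libraries. METTL5-cKO TAC library 4 stood apart by its low fibroblast sum. Without it 1973 genes were higher and 1926 lower among all those tested, and of the 10 immediate early genes Egr2, Myc, Junb and Ier3 were called. In that library Egr1 (26.4 CPM), Atf3 (23.4 CPM), Fos (5.74 CPM) and Jun (65.6 CPM) had their highest levels of the table. The part of cell composition in these results was not tested.

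In PE-treated NRVM, 6 of the 10 genes differed between AdMETTL5 and AdGFP, 4 lower and 2 higher, in edgeR as in DESeq2. This stands beside 52.8% of the 15041 genes tested (25.7% lower and 27.1% higher), so a share of 6 in 10 was near that of all genes. The groups were apart for 5 of the 10, beside 48.4% of all genes. The median log2 fold change of the 10 was -0.02.

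Both Egr genes were lower. Egr1 had 132, 134, 137 and 157 CPM with AdGFP and 50.4, 55.8, 46.9 and 59.3 CPM with AdMETTL5. All AdMETTL5 libraries lay far below all AdGFP libraries, with means of 140 ± 11.4 and 53.1 ± 5.52 CPM (SD, n = 4). On the log2 scale Egr1 changed by -1.40 (standard error 0.0775, adjusted p = 6.18e-08 in edgeR). It was the 1 of the 10 genes that also passed an absolute log2 fold change over 1. Egr2 had 18, 17.9, 17.6 and 15.6 CPM with AdGFP and 9.24, 10.4, 9.12 and 9.92 CPM with AdMETTL5 (-0.84, standard error 0.0772, adjusted p = 3.22e-06).

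Of the AP-1 genes among the 10, Jun fell and the other 3 did not pass the test. Jun had 132, 128, 130 and 133 CPM with AdGFP and 101, 95.6, 94.3 and 98.1 CPM with AdMETTL5, so that the groups were apart by more than the spread within them (-0.43, standard error 0.0413, adjusted p = 4.87e-06 in edgeR). Fos had 18.7, 17.6, 14.9 and 16.5 CPM against 19, 16.2, 16.4 and 15.3 CPM (-0.02, standard error 0.0882). Junb lay between 76.6 and 86.5 CPM in all 8 libraries (0.03, standard error 0.0482). Fosb had 3.01 to 4.03 CPM with AdGFP and 3.56 to 4.52 CPM with AdMETTL5 (0.32, standard error 0.135, adjusted p = 0.0656 in edgeR). Fosb passed the test without AdGFP library 1 (adjusted p = 0.0199), without AdMETTL5 library 4 (adjusted p = 0.0393), and with scaling by library size alone (adjusted p = 0.0114). That scaling also called Junb (0.17, adjusted p = 0.0105), which made 8 of the 10 genes.

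Myc rose and Ier3 fell. Myc had 37.4, 35.4, 38.3 and 38.1 CPM with AdGFP and 65.9, 63.2, 63.7 and 67.3 CPM with AdMETTL5, without overlap (0.80, standard error 0.0478, adjusted p = 1.02e-07 in edgeR). Ier3 had 220, 207, 167 and 171 CPM with AdGFP and 152, 142, 137 and 136 CPM with AdMETTL5, where the AdGFP libraries fell into a higher and a lower pair (-0.43, standard error 0.084, adjusted p = 0.00101). Atf3 had 17.1, 16.8, 12.3 and 12.9 CPM with AdGFP and 21.9, 23.8, 21.1 and 15.4 CPM with AdMETTL5. Its groups overlapped through AdMETTL5 library 4 (0.47, standard error 0.14, adjusted p = 0.0132, exact permutation p = 0.0857). Ier2 lay between 41.8 and 53.6 CPM in all 8 libraries (-0.03, standard error 0.074). All 6 calls held with each library left out in turn and under every scaling and filter tried.

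Of 48 further immediate early genes tested in NRVM, 27 were higher and 10 lower (77.1%). Cited2 rose by 0.61 (standard error 0.0402), Klf4 by 0.56 (standard error 0.0501) and Trib1 by 0.43 (standard error 0.0469) on the log2 scale, and Phlda1 changed by -0.46 (standard error 0.0556). Of 22 upstream regulators, 9 were higher and 5 lower (63.6%, beside 52.8% of all genes). Srf, the factor that binds the CArG box, was lower, at 230 ± 5.41 CPM with AdGFP and 168 ± 4.66 CPM with AdMETTL5 (SD, n = 4), which is -0.46 on the log2 scale (standard error 0.041, adjusted p = 2.53e-06 in edgeR). The kinase Mapk9, a JNK, was lower (-0.38), and the kinase Rps6ka1 and the CREB family member Crem were higher by 0.73 and 0.43. Of 14 partners of AP-1 and MYC, 4 were higher and 1 lower. Mafg (0.62), Mxd1 (0.45) and Mycn (0.35) were higher. The fourth, Batf2, had 0 counts in all 4 AdGFP libraries and 10 to 15 counts in the AdMETTL5 libraries. It passed the filter on low counts through AdMETTL5 alone, so that it had to differ and its call supports nothing. All 6 cardiomyocyte markers were lower with AdMETTL5 (sums of 14226 to 16254 and 6772 to 7421 CPM), as were 5 of 6 fibroblast markers (9418 to 9906 and 7549 to 8316 CPM) and the 3 atrial markers tested. Retnlg and S100a9, of neutrophils, and Hbb-bs and Alas2, of red blood cells, were at 0 in all NRVM libraries. The part of these shifts in the results for immediate early genes was not tested.

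The direction in NRVM can be set beside that in the TAC hearts gene by gene. Egr1, Egr2 and Ier3 were higher in METTL5-cKO hearts after TAC and lower in NRVM with AdMETTL5, Myc was higher in both, Junb was called in the TAC hearts alone and Jun and Atf3 in NRVM alone. The species, tissue and tables differ, and the difference between the contrasts was not tested.

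Whether libraries high in Fos were high in the other 9 genes was examined on log2 CPM after the mean of each group was taken off. The 1-month-old libraries fell into a high set of 3 and a low set of 5, too few to correlate within a set, so a value over libraries that include them is a description of the sets. Over the 24 mouse libraries 6 of the 9 genes (Fosb, Jun, Junb, Egr1, Ier2 and Ier3) passed an adjusted permutation p under 0.05, and within the 8 libraries at 1 month 4 did (Jun, Junb, Egr1 and Ier2). Without the 2 libraries farthest from the median of Fos 0 passed, although Pearson's r over the other 22 was still between 0.61 and 0.69 for Fosb, Jun, Junb, Egr1 and Ier2. Over the 16 libraries at 3 months and after TAC, a set chosen after these data were seen, 0 of the 9 passed, and the highest Pearson r was that of Jun (r = 0.62, permutation p = 0.0626, adjusted p = 0.16, Spearman rho = 0.59 with a permutation p of 0.0588), which was 0.52 without the 2 farthest libraries. In the 8 NRVM libraries, Ier3 passed (r = 0.85, exact permutation p = 0.00347, adjusted p = 0.0312 over 9 genes, rho = 0.81 with an adjusted p of 0.102). With scaling by library size alone it did not, at an adjusted p of 0.0938. Without the 2 farthest libraries r of Ier3 was 0.81 over the 6 that were left. Its exact permutation p was then 0.278 before adjustment, from 36 permutations.

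Outside the 10 genes, those with the profile most like Fos over the 24 mouse libraries were, among 15533 genes, Dusp1, Btg2, Ccn1, Gm10364 and Grpel2. Their likeness was measured by Pearson's r of group-centred log2 CPM, as a description over libraries that include the high and low sets, and was 0.92, 0.87, 0.84, 0.82 and 0.78. Within the 8 libraries at 3 months r was 0.91 for Dusp1, 0.76 for Btg2, 0.26 for Ccn1, 0.80 for Gm10364 and 0.37 for Grpel2. Within the 8 libraries after TAC it was 0.08, 0.24, 0.69, 0.54 and -0.68 in the same order. Both sets of 8 were part of the 24 libraries that picked these genes, so these values are no independent check. Dusp1 is a phosphatase of MAP kinases, and Btg2 and Ccn1 were on the list of further immediate early genes, whereas Dusp1, Gm10364 and Grpel2 were not. In the 8 NRVM libraries the genes most like Fos among 15031 were AABR07054979.1, C1qtnf5, AABR07048957.1, Dapk3 and Pus7l, with r from 0.97 to 0.99. They were picked as the highest of 15031 values over only 8 libraries, and no background for such a maximum was computed. No likeness is therefore drawn from them, nor from a comparison with the 5 of the mouse hearts.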

How the data were processed

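Total RNA was sequenced after BGIseq library preparation. The authors aligned reads to GRCm38 or Rnor_6.0 with HISAT2 2.0.4 and deposited estimated counts per gene from StringTie 2.1.4, which are whole numbers without scaling. The plan assumed plain counts, and the same tests were applied to the estimated counts. Each column of the 1-month table was assigned to its own sample, and the columns of the other tables to groups, in which libraries were numbered by their column names. Whether samples came from separate animals or cultures is not stated for each library, so p-values measure the spread between these samples.

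Each table was fitted alone in edgeR 4.0.16 (R 4.3.3) with TMM, filterByExpr (minimum count 10, total 15), glmQLFit, glmQLFTest and Benjamini-Hochberg adjustment over all genes tested, and a gene was called at an adjusted p under 0.05. Standard errors were derived as the absolute log2 fold change divided by the square root of the F statistic of glmQLFTest. For single genes, mean log2 CPM (prior count 2) was also tested by exact permutation of all 70 labellings, two-sided. Correlations were tested by 100000 permutations within groups, or exactly by 576 in NRVM. The scripts were tested on simulated data. Alternatives were DESeq2 1.42.0, its size factors, library size alone, other filters, a joint fit, a replicate block and leaving out each library. Positions come from GENCODE vM21 and sequences from RefSeq. The genes and lists were chosen with earlier results of these data known. All 10 genes were named, Mettl5, up to 4 called genes of each list with the smallest adjusted p, the 5 genes most like Fos, and Fosl2. The values of 1 gene that this rule picked are not reported here. No pair of libraries was identical, and the chi-square per degree of freedom of the closest pair was 2.16.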

Additional observations from a re-analysis of the deposited data

Results flagged for a closer look

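In each group of 4 libraries, the highest or lowest was set against the rest by Dixon's criterion. Of 80 groups tested (10 genes in 8 groups), 8 held a library beyond the 95% critical value. A chance rate of about 1 in 20 groups holds for independent, normally distributed values. CPM were used without a log scale and the 10 genes share libraries, so the 8 are not read as an excess over chance. At 1 month, METTL5-KO library 1 was highest in 4 of them, with Fos at 35.6 CPM (the others 1.99 to 5.77), Egr1 at 146 (11.6 to 31.1), Junb at 44 (13.9 to 17.8) and Ier3 at 23.5 CPM (15.1 to 15.8). Control library 2 at 1 month was highest for Fosb, at 40.8 CPM (0.681 to 4.94), and control library 1 for Myc, at 4.55 CPM (2.25 to 2.6). After TAC, METTL5-cKO library 1 was highest for Fosb, at 4.17 CPM (0.768 to 1.18). In NRVM, AdGFP library 4 was lowest for Egr2, at 15.6 CPM (17.6 to 18).

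Myc was lower in every METTL5-KO library than in every control at 1 month (log2 fold change -0.60) and higher in every METTL5-cKO library than in every control after TAC (1.36). The groups differed in knockout, age and operation, and the difference between these effects was not tested.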

How the results depend on the processing

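The count of called genes among the 10 stayed at 0 at 1 month and at 3 months under every setting except an unadjusted p under 0.05, which gave 2 of the 10 and 2 further immediate early genes in each table. After TAC, 5 were called with TMM, DESeq2, its size factors or library size alone, 3 with no filter, 2 in 1 fit over the 24 mouse libraries and 2 with an absolute log2 fold change over 1, and 2 to 6 when 1 library was left out, with 2 without control TAC library 4. For further immediate early genes after TAC the 14 became 3 in 1 fit over 24 libraries, 6 with a log2 fold change over 1, and 3 to 17 without 1 library. In NRVM a log2 fold change over 1 left 1 of the 6 and 2 of the 37 further genes, library size alone called 8 of the 10, and leaving out 1 library gave 6 to 7 and 32 to 35. Leaving out 1 library changed no count at 1 month or 3 months, nor the 0 in the interaction.

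Scaling by library size alone moved the median log2 fold change of all genes to 0.143 after TAC and 0.133 in NRVM, and the calls from 1074 higher and 997 lower to 2060 and 524 after TAC, and from 4082 and 3867 to 5872 and 2343 in NRVM. It moved the median spread percentile from 90.7 to 93.0 at 1 month, from 86.8 to 82.5 after TAC and from 55.6 to 36.7 in NRVM, and turned the sign of Fos (0.12) and Ier2 (0.11) in NRVM and of Mettl5 after TAC (0.11), none of them called. Without 1 library the median percentile ranged from 87.2 to 93.2 at 1 month, 84.0 to 91.3 at 3 months, 79.0 to 88.7 after TAC and 46.1 to 59.7 in NRVM. The 6 genes that passed with Fos in the mouse became 4 within 1 month, 0 without the 2 farthest libraries, 0 within 3 months, 0 within TAC and 0 over the 16 libraries added after seeing the data, also without their 2 farthest. The 1 in NRVM, Ier3, became 0 with library size alone, and 0 without the 2 farthest libraries. There its exact permutation p over 36 permutations was 0.278 before adjustment.

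Without 1 library, log2 fold changes at 1 month ranged from -2.15 to 0.12 for Fos, -1.56 to 1.14 for Fosb, -0.47 to 0.10 for Jun, -0.66 to 0.33 for Junb, -1.81 to 0.22 for Egr1, -0.52 to 0.076 for Ier2 and -0.22 to 0.38 for Ier3. At 3 months they ranged from -0.62 to 0.15 for Fosb and -0.015 to 0.23 for Ier2. After TAC they ranged from -0.042 to 0.23 for Jun, -0.11 to 0.80 for Atf3, -0.071 to 0.14 for Ier2 and -0.10 to 0.035 for Mettl5. In NRVM they ranged from -0.084 to 0.032 for Fos and -0.084 to 0.041 for Ier2, and the interaction of Egr1 from -0.52 to 0.29. The causes of these changes were not tested. At 1 month, same-numbered libraries had correlations of deviations of 0.24, 0.12, -0.11 and 0.078, so the numbers did not pair them. With the replicate block 0 of the 10 were called, and Fosb (0.29) and Ier3 (0.044) turned sign. No paired analysis was possible because the columns of the other tables carry no replicate number of single samples. Depth limits Egr2 most, at 5 to 23 counts in most mouse libraries outside the METTL5-cKO TAC group.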
